A study of Mus musculus with 8 samples.

Results

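The genes described here encode the transcription regulators through which cyclic AMP changes gene expression: the DNA-binding factors Creb1, Crem and Atf1, the coactivators Crtc1, Crtc2, Crtc3, Crebbp and Ep300, and the kinases Sik1 and Sik2. They were chosen by symbol from knowledge of the pathway, with earlier results of these data known. They make up 10 of the 47706 rows of the deposited count table. RNA sequencing was performed on primary mouse calvarial osteoblasts, bone-forming cells released from the skullcap of newborn mice, after 7 days of differentiation and 24 hours of parathyroid hormone (PTH, the 1–34 peptide) or vehicle. There were 4 samples per treatment, and both treatments shared the same cells, differentiation and short serum starvation. The labels name no genotype or strain for these cultures, and the meaning of the prefix "Con" carried by all 8 titles was not given in the sources used here. The labels call the differentiation adipogenic, whereas the methods of the study describe an osteogenic medium. The methods give the PTH dose of these cultures in micromolar and that of the stromal cell cultures in nanomolar. The labels number the samples but do not say that they came from separate animals or isolations, so p-values measure the spread between these samples only.

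In the osteoblast, PTH binds the receptor PTH1R and, through the stimulatory G protein, raises cyclic AMP and activates protein kinase A. The kinase phosphorylates CREB, which then recruits the histone acetyltransferases CBP (Crebbp) and p300 (Ep300), and it phosphorylates and inhibits the salt-inducible kinases (SIKs). SIKs hold the CRTC coactivators in the cytoplasm, so their inhibition frees CRTCs to enter the nucleus and join CREB. This route is a well-known arm of PTH action on bone cells. Crem also encodes short repressor forms known as inducible cyclic AMP early repressors (ICER), which are made from a promoter inside the gene and bind the same DNA element as CREB.

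The table gives whole-number counts per gene, with totals between 33605610 and 56090654 per sample, and the first principal component (62.8% of the variance) separated the treatments. Osteoblast markers (11 genes) summed to between 92698 and 105023 CPM (read counts expressed relative to library size) in the vehicle samples and between 86701 and 125234 CPM in the PTH samples, a sum carried by Col1a1, Col1a2 and Sparc. By the test 8 of the 11 did not pass and 3 were lower, namely the transcription factor genes Sp7 (103 ± 29.6 to 30.1 ± 3.26 CPM) and Runx2 (116 ± 5.70 to 92.3 ± 8.97 CPM) and the osteocyte matrix gene Dmp1 (18.1 ± 6.05 to 8.27 ± 1.40 CPM). Markers of other cells summed to less than the osteoblast markers in every sample. In the vehicle and PTH samples respectively, macrophage markers summed to between 1084 and 1764 and between 1683 and 2155 CPM (1 of 10 higher by the test), chondrocyte markers to between 316 and 331 and between 369 and 485 CPM (2 of 4 higher), and adipocyte markers to between 39.8 and 55.5 and between 34.8 and 54.9 CPM (1 of 7 tested lower, the others not passing). The macrophage sum was carried mainly by Lyz2 (914 ± 187 CPM with vehicle and 1417 ± 203 CPM with PTH). Skeletal muscle and endothelial markers summed to at most 8.36 CPM in every sample, and Emcn was at 0. The part of these cells in the values below was not tested, and in RNA from whole cultures a smaller number of cells of a type and less RNA per cell cannot be told apart. As a check of the labels, Tnfsf11, which encodes RANKL and is a known PTH target in osteoblasts, rose from 1.42 ± 0.365 to 128 ± 20.01 CPM (mean ± SD, n = 4).

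PTH was compared with vehicle in 16736 genes with enough counts, with the quasi-likelihood test of edgeR and p-values adjusted over all of them (Benjamini-Hochberg), and an adjusted p (Padj) under 0.05 was taken as a change. All 10 regulators were tested, at between 328 and 10986 counts per sample. Of these, 4 were higher with PTH (Crem, Sik1, Sik2 and, with TMM scaling but not with the 2 other scalings given below, Ep300), 3 were lower (Creb1, Crtc1, Crtc3) and 3 did not pass (Atf1, Crtc2, Crebbp). In the same fit 45.8% of all tested genes passed, 23.3% higher and 22.5% lower, so that 7 of 10 has to be read against a high background. The 4 PTH and 4 vehicle samples did not overlap in 7 of the 10 genes, against 43.0% of all tested genes. A change of at least 1 on the log2 scale was found in 3 of the 10, against 11.2% of all tested genes. The median log2 fold change of the 10 genes was 0.18 and the median absolute change 0.40, compared with -0.00081 and 0.35 over all tested genes. These values rest on TMM scaling, which sets the median gene near no change. Scaling by library totals, an alternative chosen after seeing the data, placed the median gene at -0.13 and turned the split of all genes from 3907 higher and 3762 lower into 2888 and 5361. Scaling by totals per transcript length, here the length of all annotated exons of a gene, placed the median gene at -0.24. It gave 2305 higher and 6849 lower, so changes below are relative to the median gene. The calls of Crem, Sik1, Sik2, Creb1, Crtc1 and Crtc3 held under each scaling, and those of the other 4 regulators are given with their values under each where it matters.

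**Figure D1:**
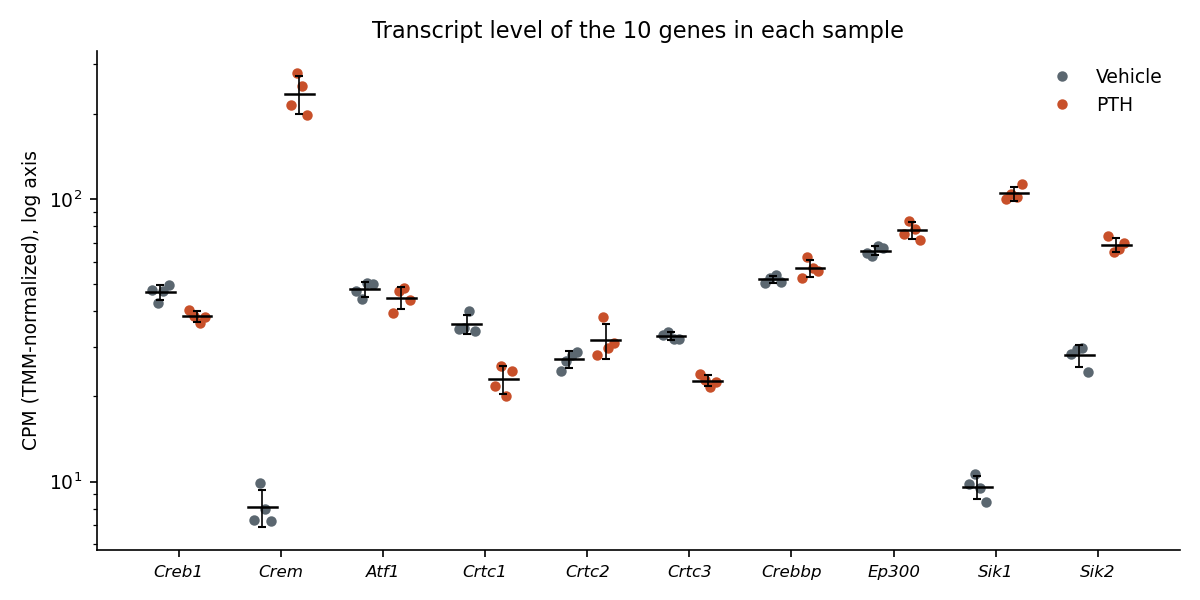
Transcript level of each of the 10 genes in each sample, as TMM-normalized CPM on a log axis. Points are samples (4 vehicle, 4 PTH), the long bar is the mean and the error bar the SD. The gap between treatments was widest for Crem (mean 8.12 and 235 CPM) and Sik1 (9.60 and 105 CPM). The treatments did not overlap for Crem, Sik1, Sik2, Ep300, Creb1, Crtc1 and Crtc3.

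Among the DNA-binding factors, Crem was strongly upregulated, Creb1 was slightly downregulated and no change was detected in Atf1. Crem (ENSMUSG00000063889, chr18:3266048-3337748, minus strand, GRCm38) was at 7.32, 9.92, 7.99 and 7.26 CPM in the vehicle samples and at 214, 278, 251 and 198 CPM in the PTH samples. The lowest PTH sample was far above the highest vehicle sample, and the raw counts moved from between 328 and 432 to between 8313 and 10986. Crem rose 28.96-fold (95% confidence interval 23.4 to 35.8; log2 fold change 4.86, SE 0.140, Padj = 8.60e-11) and had the 71st largest increase of the 16736 genes. The annotation lists 39 transcripts for Crem, and the counts are per gene, so full-length activator forms and ICER forms cannot be told apart in these values. A non-coding gene on the opposite strand, Gm6225, overlaps Crem over 1069 bases. It had at most 67 counts in any sample, and the strand setting of the counting was not given in the sources used here.

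Creb1, the factor that gives the family its name, went the other way. Creb1 (ENSMUSG00000025958, chr1:64532645-64604548, plus strand) was at 47.6, 42.7, 47.1 and 49.4 CPM with vehicle and at 40.5, 38.6, 36.4 and 38.3 CPM with PTH. The groups lay close together but did not overlap. Creb1 fell by 17.7% (log2 fold change -0.28, SE 0.0681, Padj = 0.00504). Atf1 (ENSMUSG00000023027, chr15:100227819-100261244, plus strand), a close relative that pairs with CREB, was at 47.3, 44.1, 50.5 and 50.03 CPM with vehicle and at 39.6, 47.4, 48.2 and 43.7 CPM with PTH, and the groups overlapped. Its log2 fold change was -0.10 (95% confidence interval -0.27 to 0.07, SE 0.0784, Padj = 0.314). With scaling by totals per transcript length its change was -0.35 and passed (Padj = 0.00186). A pseudogene, Atf1-ps, is 98.4% identical to Atf1 over 810 bases and has no row under that symbol in the deposited counts. How reads that match both were assigned was not given in the sources used here, so the Atf1 values are uncertain to that extent.

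The make-up of the family was also compared per length, as CPM per kilobase of annotated exon, since a long transcript yields more reads. Atf1 supplied 76.6 ± 1.10% of the summed Creb1, Crem and Atf1 signal with vehicle, Creb1 16.6 ± 0.550% and Crem 6.78 ± 1.34%. With PTH, Crem supplied 69.4 ± 2.38%, Atf1 25.6 ± 1.95% and Creb1 4.95 ± 0.727%. The order of the family was thus reversed for Crem and Atf1, and the summed level rose from 20.5 to 57.3 CPM per kilobase, by 2.80-fold. When the length of the longest transcript replaced the exon length, Crem supplied 9.72% with vehicle and 77.2% with PTH. The summed level then rose by 3.62-fold. Sums over a family also rest on TMM scaling, and no sum was tested between treatments. The Crem forms present were not told apart, so its shares depend on the length used and are approximate.

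**Figure D2:**
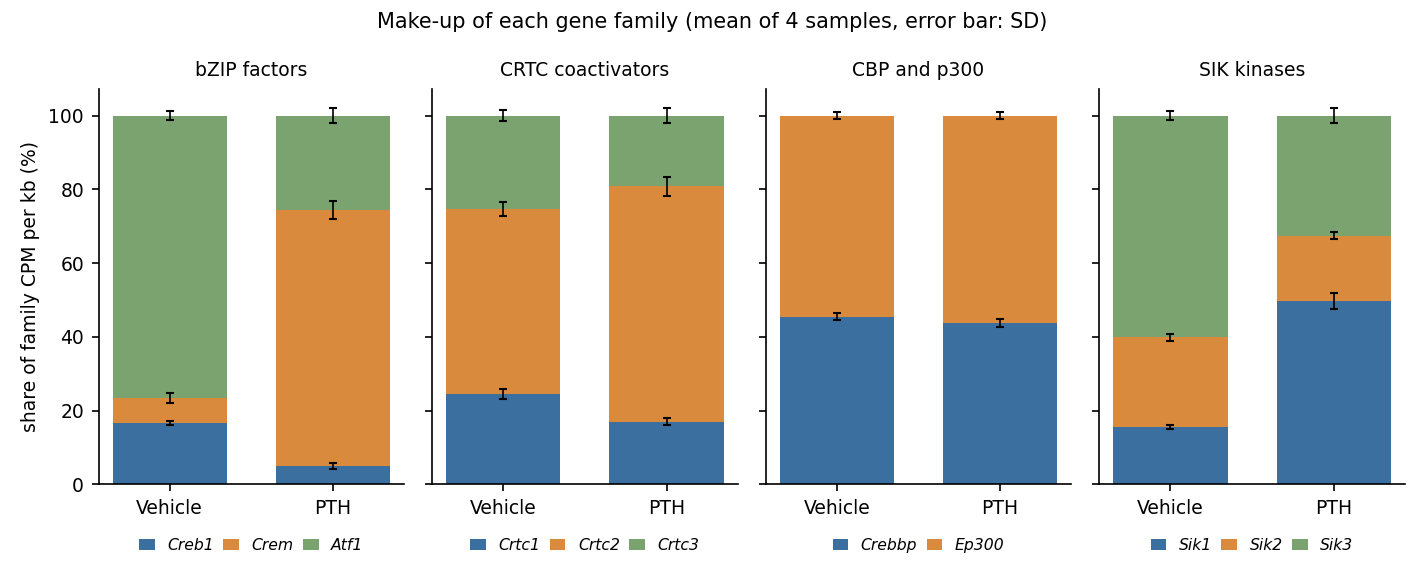
Make-up of each gene family as the share of its summed CPM per kilobase of exon, for the bZIP factors, the CRTC coactivators, CBP and p300, and the SIK kinases. Each segment is the mean of 4 samples, and the error bar at its top is the SD of that gene's share. Crem grew from 6.78% to 69.4% of the bZIP signal and Sik1 from 15.5% to 49.8% of the SIK signal, whereas CBP and p300 kept nearly equal parts.

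The CRTC coactivators did not move together. CRTC1, CRTC2 and CRTC3 are relatives that bind the DNA-binding domain of CREB once dephosphorylated. Crtc1 (ENSMUSG00000003575, chr8:70382355-70439579, minus strand) was at 34.7, 35.0, 40.1 and 34.0 CPM with vehicle and at 21.8, 25.7, 20.02 and 24.6 CPM with PTH. Crtc3 (ENSMUSG00000030527, chr7:80586627-80688877, minus strand) was at 33.1, 33.9, 31.88 and 31.95 CPM with vehicle and at 24.0, 22.8, 21.6 and 22.6 CPM with PTH. Every PTH sample was below every vehicle sample for both genes. Crtc1 was 1.56-fold lower with PTH (log2 fold change -0.64, SE 0.0924, Padj = 0.000129) and Crtc3 1.44-fold lower (log2 fold change -0.52, SE 0.0668, Padj = 5.09e-05). Crtc2 (ENSMUSG00000027936, chr3:90254163-90264125, plus strand), the CRTC best known from hormone action in liver, was at 24.5, 26.8, 28.04 and 28.8 CPM with vehicle and at 28.03, 38.1, 29.7 and 30.9 CPM with PTH. The groups overlapped, and PTH sample 2 stood above the other 3. Its log2 fold change was 0.23 (95% confidence interval 0.01 to 0.44, unadjusted p = 0.0406, Padj = 0.0805 by edgeR's quasi-likelihood test). Without PTH sample 1 the Crtc2 change was 0.28 and passed (Padj = 0.0338), without PTH sample 2 it was 0.14 (Padj = 0.193), and with totals per transcript length it was -0.020. On the per-length scale, Crtc2 supplied 50.2 ± 1.92% of the CRTC signal with vehicle and 63.8 ± 2.54% with PTH, Crtc1 24.5 ± 1.45% and 17.0 ± 1.02%, and Crtc3 25.3 ± 1.56% and 19.2 ± 2.07%. The summed CRTC level was 13.1 CPM per kilobase with vehicle and 12.1 with PTH. With the length of the longest transcript it was 18.9 and 17.3.

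CBP and p300, the acetyltransferases that bind phosphorylated CREB, had small changes. Ep300 (ENSMUSG00000055024, chr15:81585351-81652077, plus strand) was at 64.5, 62.9, 68.1 and 66.9 CPM with vehicle and at 75.4, 83.8, 78.5 and 71.5 CPM with PTH, without overlap. Relative to the median gene Ep300 rose by 17.8% (log2 fold change 0.24, SE 0.0655, Padj = 0.0110), but its change was 0.11 (Padj = 0.221) with scaling by library totals and -0.0089 with totals per transcript length. Crebbp (ENSMUSG00000022521, chr16:4081328-4213997, minus strand) was at 50.6, 52.4, 53.8 and 50.9 CPM with vehicle and at 52.7, 62.3, 56.9 and 55.3 CPM with PTH, and the groups overlapped. Its log2 fold change was 0.13 (95% confidence interval -0.02 to 0.27, Padj = 0.136), and -0.12 with totals per transcript length. Crebbp supplied 45.5 ± 0.955% of the CBP and p300 signal with vehicle and 43.6 ± 1.07% with PTH.

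Both SIK genes among the 10 were upregulated. Sik1 (ENSMUSG00000024042, chr17:31844250-31855804, minus strand), itself a known CREB target that acts back on the CRTCs, was at 9.77, 10.7, 9.49 and 8.47 CPM with vehicle and at 100, 104, 101 and 113 CPM with PTH. The samples of each treatment were tightly grouped, with SDs of 0.901 and 5.99 CPM. Sik1 rose 10.9-fold (95% confidence interval 9.59 to 12.4; log2 fold change 3.45, SE 0.0845, Padj = 2.32e-11). Sik2 (ENSMUSG00000037112, chr9:50892801-51009073, minus strand), a kinase through which PTH is known to act in bone, was at 28.3, 29.4, 29.8 and 24.4 CPM with vehicle and at 73.6, 64.8, 66.5 and 70.03 CPM with PTH. Again no PTH sample came near the vehicle samples. Sik2 rose 2.46-fold (95% confidence interval 2.18 to 2.77; log2 fold change 1.30, SE 0.0788, Padj = 7.02e-08). Its 3′ end overlaps that of Ppp2r1b on the opposite strand over 1429 bases, and Ppp2r1b, a subunit of protein phosphatase 2A, went from 36.8 ± 1.05 to 50.8 ± 5.51 CPM (log2 fold change 0.46, Padj = 0.000493). With totals per transcript length the change of Ppp2r1b was 0.22 and did not pass (Padj = 0.0562). How far reads of the overlap were counted for Sik2 was not tested.

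Sik3, the remaining SIK and not among the 10, went from 67.4 ± 3.10 to 124 ± 9.03 CPM (log2 fold change 0.88, SE 0.0686, Padj = 6.29e-07). The transcripts of the SIK family therefore rose by 3.40-fold in sum, from 12.03 to 40.9 CPM per kilobase. Sik3 supplied 60.2 ± 1.13% of that signal with vehicle and 32.6 ± 2.08% with PTH, Sik2 24.3 ± 0.973% and 17.6 ± 0.964%, and Sik1 15.5 ± 0.578% and 49.8 ± 2.16%. Sik2 thus lost share although its own level rose, and Sik1 became the largest of the 3 on this scale. With the length of the longest transcript the SIK sum rose by 3.09-fold.

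**Figure D3:**
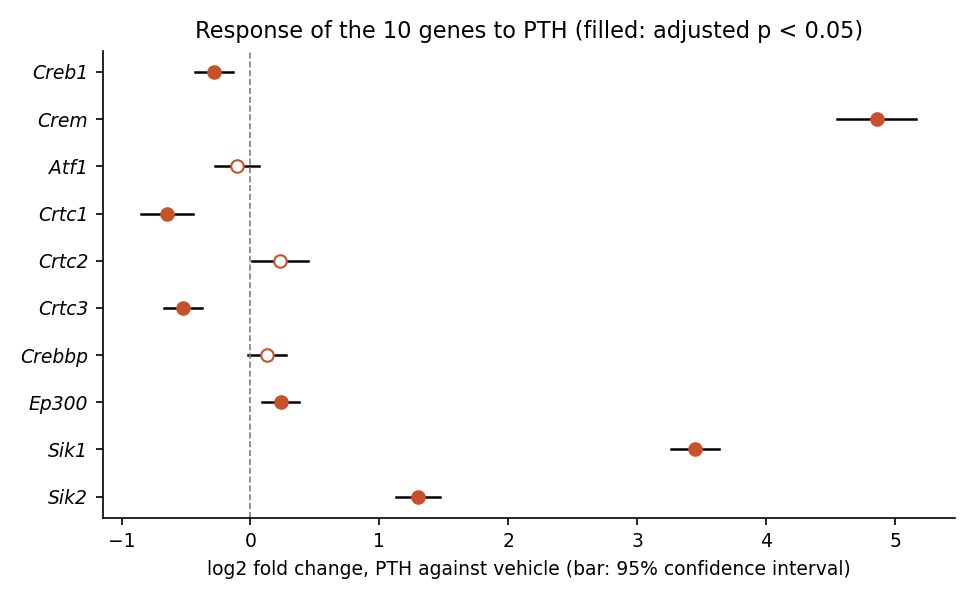
Log2 fold change of each of the 10 genes, PTH against vehicle, from edgeR. The bar is the 95% confidence interval, and filled points have an adjusted p under 0.05. Crem (4.86), Sik1 (3.45) and Sik2 (1.30) stand apart, and the other 7 genes lie between -0.64 and 0.24.

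Ratios of counts of related genes within a sample do not depend on how samples are scaled to each other, and 6 such ratios were compared by exact two-sided permutation tests. With 70 ways of assigning the samples to the treatments, p cannot be smaller than 0.0286. The Crem to Creb1 ratio was 0.154, 0.232, 0.170 and 0.147 in the vehicle samples and 5.29, 7.20, 6.89 and 5.16 in the PTH samples, so that Crem had fewer counts than Creb1 in every vehicle sample and more in every PTH sample. The log2 ratio differed by 5.13 (SE 0.194). The Sik1 to Sik2 ratio was 0.346, 0.363, 0.319 and 0.348 with vehicle and 1.36, 1.60, 1.52 and 1.62 with PTH, a log2 difference of 2.15 (SE 0.0691). The Crtc1 to Crtc2 ratio was 1.41, 1.31, 1.43 and 1.18 with vehicle and 0.778, 0.675, 0.675 and 0.797 with PTH, a log2 difference of -0.87 (SE 0.0905). The Crtc3 to Crtc2 ratio was 1.35, 1.27, 1.14 and 1.11 with vehicle and 0.857, 0.599, 0.726 and 0.731 with PTH, a log2 difference of -0.75 (SE 0.124). For each of these 4 ratios the treatments did not overlap, and the exact permutation p was 0.0286, the smallest possible (0.0429 after adjustment over the 6 ratios). Both CRTC ratios show that Crtc1 and Crtc3 fell relative to Crtc2, whatever the scaling between samples. The Crebbp to Ep300 ratio lay between 0.760 and 0.834 with vehicle and between 0.699 and 0.774 with PTH, overlapping, with a log2 difference of -0.11 (SE 0.0419, exact permutation p = 0.0571, adjusted 0.0686). The Atf1 to Creb1 ratio lay between 0.993 and 1.07 with vehicle and between 0.978 and 1.32 with PTH, a log2 difference of 0.18 (SE 0.0962, exact permutation p = 0.143, adjusted 0.143).

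**Figure D4:**
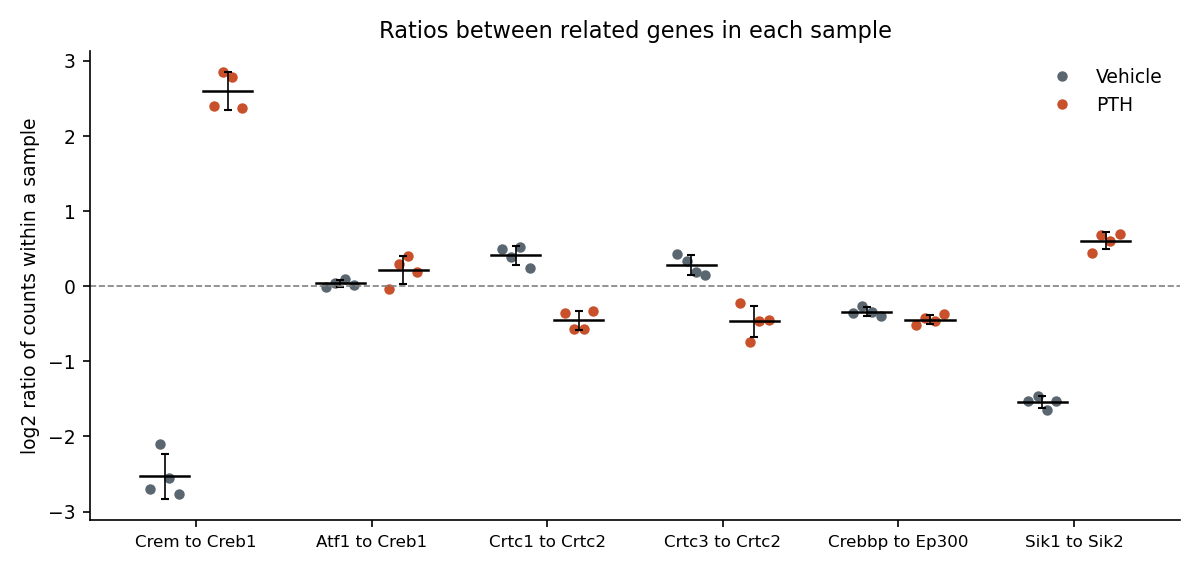
Log2 ratio of the counts of related genes within each sample, for 6 pairs. Points are samples, the long bar is the mean of 4 and the error bar the SD, and the dashed line marks equal counts. The treatments lie on opposite sides of equal counts for Crem to Creb1, Sik1 to Sik2, Crtc1 to Crtc2 and Crtc3 to Crtc2, and overlap for the other pairs. Counts here are not divided by length, so equal counts do not mean equal levels.

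To rank the genes within a treatment, counts were divided by the length of all annotated exons and scaled to the same total in every sample. The result (TPM) approximates an abundance of transcripts rather than of reads. For Crem this length is 5895 bases, against 2931 for its longest transcript, and the forms present were not measured. With vehicle, Atf1 was the most abundant at 53.6 ± 3.39 TPM, followed by Crtc2 at 22.6 ± 1.88 and Ep300 at 15.7 ± 0.644. Crebbp (13.1 TPM), Creb1 (11.6), Crtc3 (11.4), Crtc1 (11.0) and Sik2 (10.01) formed a run in which each neighbour overlapped the next, and Sik1 (6.39) and Crem (4.72) came last and overlapped. With PTH the order began with Crem at 115 ± 14.2 TPM and Sik1 at 58.9 ± 4.66, the last genes of the vehicle order, then Atf1 at 42.1 ± 2.47. Crtc2 (22.3 TPM) and Sik2 (20.8) overlapped, and Ep300 (15.6), Crebbp (12.1), Creb1 (8.09), Crtc3 (6.67) and Crtc1 (5.95) followed, of which the last pair overlapped. Crem lay above 31.4% of all tested genes with vehicle and above 91.8% with PTH. No TPM value was tested between treatments. With the length of the longest transcript the level of Crem was 7.62 TPM with vehicle and 187 TPM with PTH, and the order changed. After Ep300 the vehicle order was then Crtc3 (17.6 TPM), Creb1 (15.3), Sik2 (14.3), Crebbp (13.2), Crtc1 (9.63), Crem and Sik1. With PTH, Sik2 (30.003 TPM) then ranked above Crtc2 (24.8), and the pair overlapped.

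CREB, CREM and ATF1 bind the cyclic AMP response element, whose full form is the palindrome TGACGTCA and whose core on either strand is TGACG. Promoter sequences of 250 bases before to 50 bases after the gene start were taken from RefSeq (GRCm38.p6). Entries were held for 7 of the 10 genes (Creb1, Atf1, Crtc1, Crtc3, Crebbp, Ep300 and Sik2) and not for Crem, Crtc2 and Sik1. The RefSeq starts differ in part from the gene positions given above. The windows of Ep300 (chr15:81585964-81586263) and Crebbp (chr16:4213355-4213654) lie wholly inside the genes at those positions. The palindrome was in none of the 7 windows and in 1.79% of the 32851 promoters searched. TGACG, searched on both strands, was in 2 of the 7 windows and in 20.8% of all promoters. Whether a match bears on the response to PTH was not tested. The stretches of 30 bases that hold TGACG are shown for these 2 promoters, with the matches in capitals.
Atf1, chr15:100227757-100227786, plus strand: gtgaccacgcggTGACGcagcacgccggcg
Sik2, chr9:51009057-51009086, minus strand: gccccggcccccTGACGtcggctcaCGTCA
In Atf1 the match began 90 bases before the RefSeq gene start, which lies inside the gene at the position given above. In Sik2 a forward match began 1 base before the start and a second, on the other strand, 12 bases after it. A match is a run of letters and not a measured binding site, and the ICER promoter inside Crem lies outside these windows.

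The other genes of the route were grouped by known function into 6 lists, chosen with earlier results of these data known. The counts of each list stand beside 23.3% of all tested genes that were higher and 22.5% that were lower. Of 15 other CREB and ATF relatives, 4 were higher, 2 lower and 9 did not pass, with a median log2 fold change of -0.01. The stress-response factor Atf3 rose from 8.41 ± 1.80 to 22.4 ± 2.70 CPM (log2 fold change 1.41, Padj = 7.33e-06), and Creb3l2, a factor of the secretory pathway, from 103 ± 5.93 to 252 ± 29.6 CPM (1.29, Padj = 1.65e-07). Atf4, which osteoblasts need for collagen synthesis, rose by 0.49 (Padj = 5.92e-05) and Atf5 by 0.46 (Padj = 0.00150), the latter not with scaling by totals per transcript length. Atf7 (101 ± 6.42 to 57.7 ± 1.38 CPM, -0.80) and Crebl2 (15.5 ± 1.21 to 8.96 ± 0.825 CPM, -0.80) fell. Creb3l1, abundant at 303 ± 14.97 CPM, did not pass (306 ± 43.3 CPM with PTH, Padj = 0.911).

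Of the 19 genes measured among those that control SIKs and CRTCs (the LKB1 complex, calcineurin and its inhibitors, 14-3-3 proteins and Sik3), 7 were higher, 4 lower and 8 did not pass, with a median of 0.02. Stk11, which encodes LKB1, the kinase that switches SIKs on, rose from 78.6 ± 5.04 to 201 ± 6.81 CPM (log2 fold change 1.35, Padj = 9.58e-09). Its partners Strada and Stradb, pseudokinases that hold LKB1 active, fell (15.4 ± 1.53 to 10.9 ± 0.760 CPM and 12.8 ± 1.03 to 8.58 ± 0.486 CPM). The 14-3-3 gene Sfn had the largest increase of the list, from 2.25 ± 0.695 to 11.7 ± 2.44 CPM (2.38, Padj = 4.04e-06), and Ywhah fell by 0.32 on the log2 scale (Padj = 0.000905). Of the calcineurin subunits, Ppp3cb was lower (-0.19, Padj = 0.0234), a call lost under 6 of the alternatives tried, among them leaving out vehicle sample 2 or 3 or PTH sample 3 or 4 (Padj between 0.0518 and 0.0847), and Ppp3ca, Ppp3cc and Ppp3r1 did not pass.

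Class IIa histone deacetylases are held in the cytoplasm by SIKs much as CRTCs are, and in the nucleus they repress MEF2 factors. Of 7 genes tested, 4 were higher, 2 lower and 1 did not pass, with a median of 0.44. Hdac4 rose from 25.3 ± 0.867 to 90.4 ± 10.3 CPM (log2 fold change 1.84, Padj = 5.12e-09), Hdac5 from 95.7 ± 5.23 to 213 ± 8.43 CPM (1.15, Padj = 3.21e-08), Mef2d from 74.2 ± 7.91 to 123 ± 3.54 CPM (0.73) and Hdac7 from 60.4 ± 4.31 to 81.9 ± 11.3 CPM (0.44, not with totals per transcript length). Mef2c, the MEF2 factor that drives the bone enhancer of Sost in osteocytes, fell from 89.5 ± 24.6 to 24.9 ± 1.48 CPM (-1.84, Padj = 1.34e-06). Hdac9 was lower at few counts (2.94 ± 1.21 to 1.57 ± 0.413 CPM, -0.91, Padj = 0.0288) and lost its call under 6 of the alternatives tried, among them leaving out vehicle sample 3 or 4 or PTH sample 1, 3 or 4 (Padj between 0.0524 and 0.104). Mef2a was at 206 ± 7.41 and 185 ± 13.8 CPM (Padj = 0.0886).

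Of 19 CREB kinases and phosphatases outside protein kinase A, 6 were higher, 5 lower and 8 did not pass, with a median of 0.03. Camk4, a calcium-dependent CREB kinase, rose from 61.4 ± 2.90 to 126 ± 7.52 CPM (log2 fold change 1.04, Padj = 1.09e-07), and Ppp1cc, a catalytic subunit of the phosphatase that removes the activating phosphate from CREB, from 42.1 ± 1.77 to 89.7 ± 7.08 CPM (1.09, Padj = 1.24e-07). The CREB kinases Rps6ka5 (-0.61), Rps6ka4 (-0.41) and Camk2g (-0.32) and the phosphatase gene Ppp2cb (-0.39) fell.

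Among 16 partners of CBP and p300 and other acetyltransferases, 2 were higher, 11 lower and 3 did not pass, with a median of -0.28. The CITED proteins, small partners of CBP and p300 without DNA binding of their own, moved in opposite directions. Cited4 rose from 0.461 ± 0.212 to 24.6 ± 5.78 CPM (log2 fold change 5.73, Padj = 7.14e-09) and Cited1 from 0.562 ± 0.190 to 17.2 ± 2.36 CPM (4.94, Padj = 2.26e-09), whereas Cited2 fell from 49.5 ± 3.55 to 16.1 ± 0.869 CPM (-1.62, Padj = 7.76e-09). The kinase Hipk2 fell from 26.0 ± 3.03 to 16.4 ± 3.03 CPM (-0.67, Padj = 0.00127), and the other 9 genes that were lower changed by between -0.46 and -0.23.

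Textbook CREB target genes were mostly upregulated. Of 22 tested, 18 were higher, 1 was lower and 3 did not pass, against 23.3% higher and 22.5% lower over all tested genes. The median log2 fold change was 3.65, also with Areg set to its bound. Since this list too was chosen with earlier results of these data known, its count is not an independent outcome. Nr4a3, an orphan nuclear receptor, rose from 2.46 ± 0.481 to 345 ± 20.9 CPM (7.13, Padj = 5.44e-12). The growth factor gene Areg had at most 2 counts in any vehicle sample and 2.93 ± 0.740 CPM with PTH, at least 45.2-fold higher than the floor of 3 counts per library. The smallest increases were those of Egr1 (51.5 ± 5.80 to 65.2 ± 3.24 CPM, 0.34) and Per1 (25.9 ± 2.85 to 45.4 ± 5.74 CPM, 0.81). Bcl2, a survival gene, fell from 11.8 ± 1.63 to 5.52 ± 0.427 CPM (-1.09, Padj = 1.97e-05). Fosb (5.38 ± 0.539 and 6.83 ± 1.07 CPM), Penk (175 ± 39.5 and 190 ± 25.0 CPM) and Pck1 (1.54 ± 0.280 and 1.75 ± 0.760 CPM) did not pass.

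**Figure D5:**
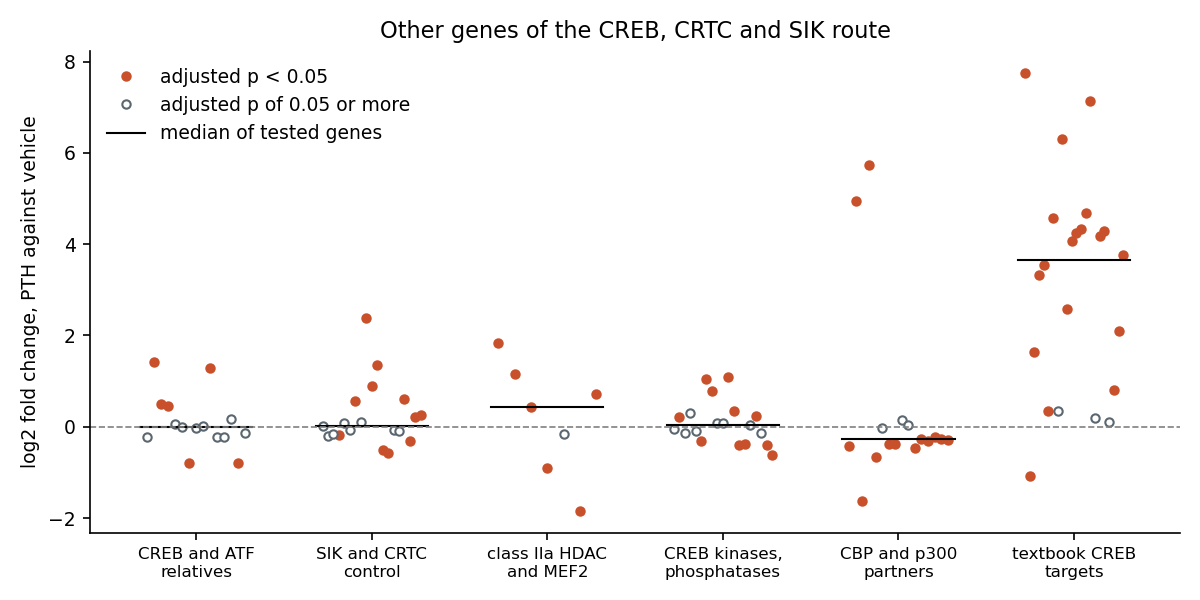
Log2 fold change, PTH against vehicle, of the tested genes of 6 lists of related genes. Filled points have an adjusted p under 0.05, open points do not, and the line is the median of the list. The medians lie between -0.28 and 0.44 for 5 lists and at 3.65 for textbook CREB targets. Of those targets 18 of 22 were higher, against 23.3% of all tested genes. Areg, the highest point, had almost no counts with vehicle and its fitted value is not a bound.

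The genes whose pattern was most like that of Crem and Sik1, the members with the largest changes, were sought by Pearson's r of log2(CPM + 0.1) over the 8 samples among the 14057 genes that averaged 1 CPM or more. Since the treatments dominate this measure, a high r says mainly that a gene rose in the same samples. For Crem they were Cxadr, Zdbf2 and Cyp26b1, each with r = 0.999, which rose by 2.88, 4.02 and 1.64 on the log2 scale. For Sik1 they were Lif, Kcnk5 and Socs3, with r of at least 0.999 and increases of 4.35, 3.10 and 4.95. Lif encodes a cytokine of bone cells and Socs3 an inhibitor of cytokine signaling.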

How the data were processed

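Poly(A) libraries were prepared and sequenced by the company Novogene. Read pairs were aligned to GRCm38 (mm10 per the labels) with HISAT2 and transcripts assembled with StringTie. The deposited counts per gene are raw whole numbers. The read length set in the counting script, annotation version and strand setting were not given in the sources used here. The authors' own test was DESeq2.

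Where several rows carried a symbol, the row with the highest mean count was used. Genes passing filterByExpr (minimum count 10, minimum total 15) were tested in edgeR 4.0.16 (R 4.3.3) with TMM, two-sided quasi-likelihood tests and no covariates. CPM use TMM library sizes. Lengths and positions came from GENCODE M21 (GRCm38), in which 46590 rows were matched. Similar genes were found with blastn 2.17.0 (at least 300 bases, 95% identity). Permutation tests used NumPy 2.4.6 and plots matplotlib 3.10.9. Counting errors alone underlie the floor of 3 counts. On simulated counts the edgeR steps were tested first. Alternatives were DESeq2 1.42.0, its size factors, no filter, a replicate block, leaving out each sample, counts summed by symbol, counts halved, a length offset, a minimum log2 fold change of 1 and the longest transcript's length. Scaling by library totals and by per-length totals was added after seeing the data.

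Members and lists were chosen with earlier results of these data known. In each list every gene that passed was named if 5 or fewer did so in a direction, and otherwise the 2 largest, apart from 1 gene that is not reported here. Creb3l1, Mef2a, Egr1, Per1 and the targets that did not pass were named after their values were seen. Proteins, isoforms and reads were not analysed here.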

Additional observations from a re-analysis of the deposited data

Results flagged for a closer look

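Vehicle sample 3 stood apart from the other 3 vehicle samples for Crtc1, at 40.1 CPM against 34.7, 35.0 and 34.0, by Dixon's test at the 95% level. The test was applied to 32 groups of 4 values, and chance alone flags about 1 in 20. Crtc1 was lower with PTH with and without this sample (log2 fold change -0.64 and -0.59).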

How the results depend on the processing

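Crem, Sik1, Sik2, Creb1, Crtc1 and Crtc3 kept direction and call under all 17 alternatives, and Ep300 under the 15 planned ones. Leaving out each sample in turn gave log2 fold changes of 4.78 to 4.95 for Crem, 3.39 to 3.49 for Sik1, 1.24 to 1.34 for Sik2, -0.33 to -0.26 for Creb1, -0.69 to -0.59 for Crtc1, -0.55 to -0.50 for Crtc3, 0.20 to 0.27 for Ep300, 0.14 to 0.28 for Crtc2, 0.09 to 0.16 for Crebbp and -0.15 to -0.05 for Atf1. Crtc2 passed without PTH sample 1 (0.28) and with a length offset (0.29, Padj = 0.0257). With library totals Ep300 was at 0.11 and no longer passed. With totals per transcript length Ep300 was at -0.0089, Crtc2 at -0.020 and Crebbp at -0.12, all reversed in sign, Atf1 passed at -0.35, and 43 related genes were lower in place of 25. Over all genes the 2 added scalings gave 2888 and 2305 higher in place of 3907, and 5361 and 6849 lower in place of 3762. Among SIK and CRTC control genes 9 and 9 were then lower in place of 4, among CREB kinases and phosphatases 9 and 10 in place of 5, with 3 higher in place of 6 under the per-length totals, and among CREB and ATF relatives 7 in place of 2 under the per-length totals. Relative to the median gene, Ep300 was at 0.24, 0.24 and 0.24 under the 3 scalings. A change of scaling shifts all genes by nearly the same amount, so this agreement was fixed in advance and is no support for the call. At a minimum log2 fold change of 1, 3 regulators were higher and 0 lower, since none was lower by that much in edgeR or DESeq2.

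Same-numbered vehicle and PTH samples showed no detectable shared deviation (correlations between -0.0409 and 0.0274). The labels do not say whether the numbers pair samples, and such correlations cannot exclude it. With the sample number as a replicate block, 3571 genes were higher and 3432 lower, 4 and 3 of the 10 regulators still passed, with Ep300 at 0.23 (Padj = 0.0340), and 39 and 22 related genes passed in place of 41 and 25. Only 1 histone deacetylase or MEF2 gene was then lower in place of 2. Exact sign-flip tests of the ratios cannot go below 0.125 with 4 pairs.

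Levels per length moved by more than the spread between samples with the longest transcript's length for 13 of 20 values. The levels in TPM with vehicle and PTH then were 15.3 and 10.8 for Creb1, 7.62 and 187 for Crem, 17.6 and 10.4 for Crtc3, 18.8 and 18.9 for Ep300, and 14.3 and 30.003 for Sik2, with 9.63 for Crtc1 and 24.8 for Crtc2 with vehicle and 54.2 for Sik1 with PTH. The lowest count of the 10 regulators was 328. Depth limits Hdac9, Areg and Pck1, which had few counts. It also limits Cited1 and Cited4, which had few counts with vehicle (17 to 35 and 12 to 34).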
